A study of Homo sapiens with 4 samples.

Results

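Contacts of 2 RNA-binding proteins with the transcripts of the proteasome genes were described in MDA-MB-231, an established human breast cancer cell line. The genes were those annotated as protein-coding whose symbol starts with PSMA, PSMB, PSMC, PSMD, PSME or PSMG followed by a number, and 49 of 20056 protein-coding genes met this rule. Of these, 47 encode proteasome subunits, activators or assembly chaperones. The other members, PSMC3IP and PSME3IP1, carry the symbol of a partner protein and are not subunits. The proteins were mapped by cross-linking and immunoprecipitation (CLIP), in which cells are irradiated to fix proteins on the RNA in contact with them, the protein is pulled down with an antibody, and the bound RNA fragments are sequenced as tags. HNRNPC, a mostly nuclear protein that binds runs of U, had 2 samples, labelled as irCLIP, although the name of its deposited peak list says HITS-CLIP. PABPC4, a protein that binds poly(A) tails, had 2 samples made by PAPERCLIP, in which reverse transcription starts at the poly(A) tail, so that tags mark the 3′ ends of mRNAs. All 4 samples were cultures of this 1 line, and the labels name no treatment other than cross-linking with ultraviolet light of 254 nm at a dose of 400 mJ per square centimetre.

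The tags of both samples were pooled by the authors before peaks were called, so each protein had 1 peak list, no value below has a spread between samples, and no test between samples was possible. Of 9107 peak positions in the HNRNPC list, 21 were assigned to the proteasome genes, and of 63507 in the PABPC4 list, 193 were. The height of a peak is the number of pooled unique tags at its summit, and heights of the lists are not on a common scale. The amount of each mRNA in these cells was not analysed here. A tall peak on an abundant mRNA and a tall peak from more frequent contact therefore cannot be told apart. Shares are given with 95% Wilson intervals, which cover counting error only.

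The proteasome is the large protease that degrades proteins tagged with ubiquitin. Its 20S core is a stack of rings, with alpha subunits (PSMA genes) on the outside and beta subunits (PSMB genes) on the inside, where PSMB5, PSMB6 and PSMB7 carry the proteolytic sites. The 19S cap unfolds substrates with a ring of ATPases (PSMC genes) and recognises and trims ubiquitin with non-ATPase subunits (PSMD genes), while PSME proteins form alternative caps and PSMG proteins help to assemble the core. The genes are expressed in nearly all cells and their products are needed in fixed proportions, apart from the inducible beta subunits PSMB8, PSMB9 and PSMB10, which interferon induces and immune cells use, and the tissue-restricted PSMA8 of testis and PSMB11 of thymus.

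PABPC4 peaks were listed for 44 of the 49 genes (89.8%, 78.2 to 95.6%), against 59.2% of all protein-coding genes. In the 3′ UTR there was a peak in 43 (87.8%, 75.8 to 94.3%), against 48.7% of all genes. HNRNPC peaks were listed for 15 genes (30.6%, 19.5 to 44.5%), against 19.02% of all genes. All 15 also had a PABPC4 peak, so the share with peaks in both lists was again 30.6%, against 18.6% of all genes. Among genes with a PABPC4 3′ UTR peak, which leaves out genes with no peak listed at their 3′ end, the HNRNPC share was 15 of 43 (34.9%, 22.4 to 49.8%), against 34.4% of all such genes. The HNRNPC share thus lay near that of other genes once a PABPC4 3′ UTR peak was required. The 5 genes in neither list were PSMA8, PSMB3, PSMB8, PSMB9 and PSMB11. Of these, PSMB3 alone encodes a subunit of the constitutive core.

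The 3′ ends marked by PABPC4 are shown first, since most of the tags lay there. Cleavage of a nascent mRNA is usually directed by a poly(A) signal, AAUAAA or its most common variant AUUAAA, a short distance upstream of the end. A window of 30 nt up to the end of the tallest 3′ UTR peak, moved a few nt upstream where the signal would otherwise be cut, is given for the 5 genes with the highest values, all subunits of the core or the cap. Coordinates are hg38, sequences run 5′ to 3′ and capitals mark the poly(A) signal.

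PSMB7 (chr9:124353467-124353496, minus strand): AAUAAAaaacaaaaaccaaauugggcagcu
PSMA7 (chr20:62136726-62136755, minus strand): acAAUAAAcuuccguauuuuuaaccuguuu
PSMB6 (chr17:4798466-4798495, plus strand): gcaaaauuuAAUAAAguuugucacagagaa
PSMD2 (chr3:184309025-184309054, plus strand): uguucAAUAAAgacuuuuauccccaagguc
PSMB4 (chr1:151401909-151401938, plus strand): uuguaaaguaAAUAAAuucuucaaaaugcu

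All 5 windows held AAUAAA. The windows of the 5 genes with the lowest values are given for contrast.

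PSMG4 (chr6:3267736-3267765, plus strand): guaaacuuauguacaauguacguguaaaua
PSMC1 (chr14:90272597-90272626, plus strand): ucccAAUAAAgcgugcucuuucacaaacac
PSMB10 (chr16:67934509-67934538, minus strand): caagggggAAUAAAcccagaaaauacaguu
PSME3IP1 (chr16:57153722-57153751, minus strand): aagaugauaaaccccaucugcugggggugu
PSMG2 (chr18:12725708-12725737, plus strand): auuuuguacAAUAAAauuuuauuuccuaag

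PSMC1, PSMB10 and PSMG2 held AAUAAA in these windows, whereas those of PSMG4 and PSME3IP1 held neither form. A low tag count was thus found both with and without a signal. Over all 74 PABPC4 3′ UTR peaks of the proteasome genes, 46 (62.2%, 50.8 to 72.4%) had a signal in the last 40 nt, against 48.6% of all PABPC4 3′ UTR peaks. AAUAAA was the one nearest the end in 37 and AUUAAA in 9. The signal started at a median of 24 nt before the peak end (range 36 to 11 nt). In 40 of 46 peaks (87.0%) it started 30 to 16 nt before the end, against 81.7% of all signal-bearing PABPC4 3′ UTR peaks. The tallest peak carried a signal in 37 of 43 genes and ended within 25 nt of an annotated transcript end in 37 of 43. The 6 genes without a signal at their tallest peak were PSMA6, PSMB5, PSMD9, PSMD10, PSME3IP1 and PSMG4. Of the 46 peaks with a signal, 38 ended within 25 nt of an annotated end, and of the 28 without one, 9 did. Shares of tallest peaks with a signal, and of peaks near annotated ends, were not counted over all genes. Those counts therefore have no comparison here.

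**Figure D1:**
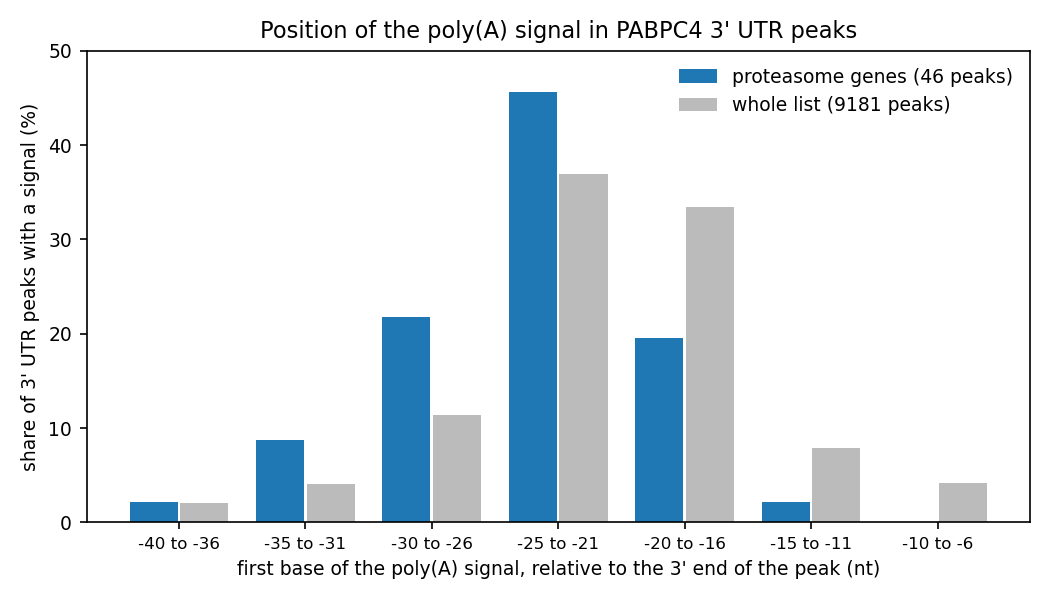
Share of PABPC4 3′ UTR peaks with a poly(A) signal, by the position of the signal's first base relative to the 3′ end of the peak in bins of 5 nt. Among the 46 peaks of proteasome genes, 21 (45.7%) had it 25 to 21 nt before the end, against 36.9% in the whole list.

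Peaks with a signal were taller. Their median height was 206.5 tags (quartiles 103.5 and 413.5) in the proteasome genes, against 60 tags (38 and 81.75) for the 28 without. In the whole list the medians were 54 and 40 tags. A run of 6 A, or any 10 nt with at least 7 A, in the 50 nt after the peak is called A-rich here, since a primer for poly(A) can anneal to such a stretch of the transcript itself. One was found at 13 of 74 peaks (17.6%, 10.6 to 27.8%), against 31.96% of the whole list.

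The height of the tallest 3′ UTR peak of each gene had a median of 205 tags over the 43 genes (quartiles 123.5 and 419, range 5 to 1101). The median over all 9769 protein-coding genes with such a peak was 73 tags (33 and 147). Of the 43 proteasome genes, 36 lay above the median of all genes and 27 above their upper quartile. These are tags per peak and not tags per mRNA molecule.

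**Figure D2:**
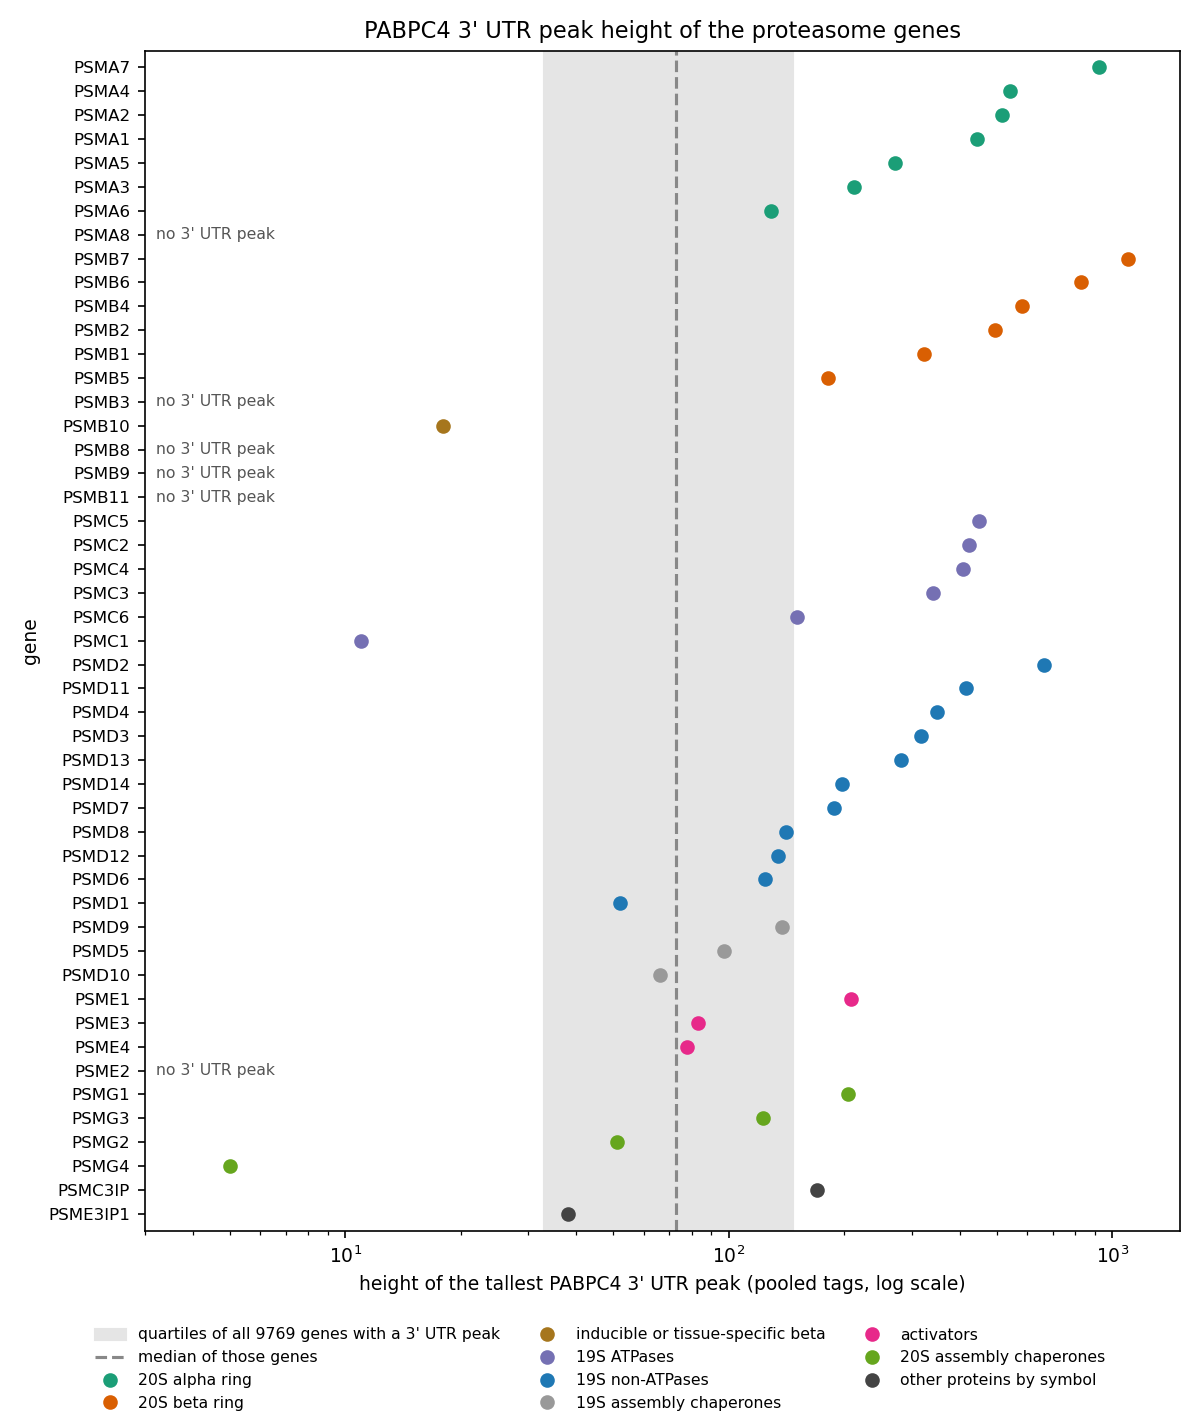
Height of the tallest PABPC4 3′ UTR peak of each of the 49 genes in pooled tags on a log axis, grouped and coloured by role, with the median (dashed line) and quartiles (grey band) of all 9769 genes with such a peak. Most core and cap subunits lie right of the grey band, and the inducible beta subunits have 1 point, at 18 tags.

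The core rings had the highest values. In the alpha ring, 7 of 8 genes had a 3′ UTR peak, with a median of 443 tags (129 in PSMA6 to 923 in PSMA7). In the constitutive beta ring, 6 of 7 did, with a median of 538.5 tags (182 to 1101). Within the beta ring the 3 catalytic subunits differed. PSMB7, which carries the trypsin-like site, had 1101 tags, the highest of all members, and PSMB6, with the caspase-like site, had 829. PSMB5, with the chymotrypsin-like site that proteasome inhibitors used in therapy bind, had 182 tags. This was the lowest of the 6 beta ring genes with a peak. Its 3′ UTR held 2 peaks side by side, whose heights summed to 327 tags, against 323 in PSMB1. The lowest rank thus holds for the tallest peak alone. The inducible counterparts of the 3 catalytic subunits were PSMB10 with 18 tags, and PSMB8 and PSMB9, which were listed with no peak. PSMB5 was also the catalytic subunit without AAUAAA or AUUAAA in its 3′ end windows, shown here.

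PSMB5 (chr14:23025945-23025974, minus strand): cuuuuuuuuaagcucuggcacauugaccuc
PSMB5 (chr14:23025866-23025895, minus strand): uacuuucuuggauguuaacauuacacuacu

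These peaks ended 43 and 8 nt before the nearest annotated end.

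In the 19S cap, all 6 ATPases had a 3′ UTR peak, with a median of 374.5 tags. PSMC2, PSMC3, PSMC4 and PSMC5 lay between 340 and 449 tags, PSMC6 had 151 and PSMC1 had 11. PSMC1 was also the member whose tallest peak lay in the 5′ UTR, with 76 tags. All 11 non-ATPase subunits had one, with a median of 197 tags, from 52 in PSMD1 to 663 in PSMD2, the scaffold subunit of the cap. PSMD5, PSMD9 and PSMD10, which assist assembly of the cap and leave it afterwards, had 97, 138 and 66 tags.

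PSME1, which forms the 11S activator together with PSME2, had 208 tags in its 3′ UTR. PSME3, a nuclear activator, had 83 and PSME4, which encodes the activator PA200, had 78. PSME2 had no peak assigned to a 3′ UTR. Its only peak, of 102 tags, was assigned to coding sequence by its centre although it ended at the annotated end, and its last 30 nt held AAUAAA.

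PSME2 (chr14:24143366-24143395, minus strand): aggaaAAUAAAugaucuauauguugugugg

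Among the assembly chaperones of the core, PSMG1 had 205 tags, PSMG3 had 123, PSMG2 had 51 and PSMG4 had 5. None of the activators or PSMG chaperones reached the median of the alpha or beta ring. Of the proteins that share a symbol with a partner, PSMC3IP had 170 tags and PSME3IP1 had 38.

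Several PABPC4 peaks along a 3′ UTR can mark alternative 3′ ends, that is, alternative polyadenylation. Of the 43 genes with a 3′ UTR peak, 18 had at least 2 (41.9%, 28.4 to 56.7%), against 51.5% of all genes with such a peak, and 25 had 1. The annotated 3′ UTR had a median length of 160 nt (50 to 3022) in the 25 genes and of 1157 nt (187 to 3726) in the 18. In 7 genes, at least 2 of the peaks carried a poly(A) signal. These pairs are shown in order along the mRNA, for genes where no A-rich stretch lay downstream.

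PSMB2 (chr1:35603140-35603169, minus strand): uucagAAUAAAggugacuauggauauaauu
PSMB2 (chr1:35601821-35601850, minus strand): uuaaagcuAUUAAAacagugguucuugacc
PSMD7 (chr16:74305753-74305782, plus strand): uuuuaauuuguaaAUUAAAaucuuacaaac
PSMD7 (chr16:74306258-74306287, plus strand): caaagauacaAUUAAAuggcuugauuuuua
PSMD8 (chr19:38383453-38383482, plus strand): cgcccAAUAAAgguggacugacauucccuc
PSMD8 (chr19:38383793-38383822, plus strand): guuggcagugaAUUAAAcaauuuuucaaau
PSMD11 (chr17:32480995-32481024, plus strand): uucuaAAUAAAaggaaaaaggcuuacacua
PSMD11 (chr17:32482126-32482155, plus strand): uuuucauAAUAAAuuuauauuuuguaaaag
PSMD11 (chr17:32482347-32482376, plus strand): guuccAAUAAAaauaauuuuuuuuuuuuuc
PSME3 (chr17:42843207-42843236, plus strand): uuAUUAAAaauacagguacuuugaccucuu
PSME3 (chr17:42843728-42843757, plus strand): ugaAAUAAAguuuccucaucuuccaccuug

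PSMB2, a beta ring subunit, had 494 tags at its first end and 210 tags at an end 1319 nt downstream. PSMD11, a non-ATPase subunit, had 3 ends, with 415 tags at the first, 42 tags 1131 nt downstream and 249 tags 1352 nt downstream. In both genes the end nearer the stop codon was the taller, with 70.2% of the tags of signal-bearing ends in PSMB2 and 58.8% in PSMD11. PSMD7 had 188 tags and, 505 nt downstream, 123 tags. PSMD8 had 141 tags and, 340 nt downstream, 126 tags. The ends of PSMD8 were near equal, with 52.8% of the tags of its signal-bearing ends at the first. In PSME3 the downstream end was the taller, with 47 tags at the first end and 83 tags 514 nt downstream.

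In the other 2 genes, 1 or both ends had an A-rich stretch downstream. PSMC2 had 423 tags and, 1179 nt downstream, 71 tags, both beside an A-rich stretch. PSMD12 had 60 tags and, 2868 nt downstream, 134 tags, the latter beside one. PSMD12 also had the most 3′ UTR peaks of any member, 7 in all, and 5 of them had no signal. Whether A-rich stretches contributed to these peaks was not tested.

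**Figure D3:**
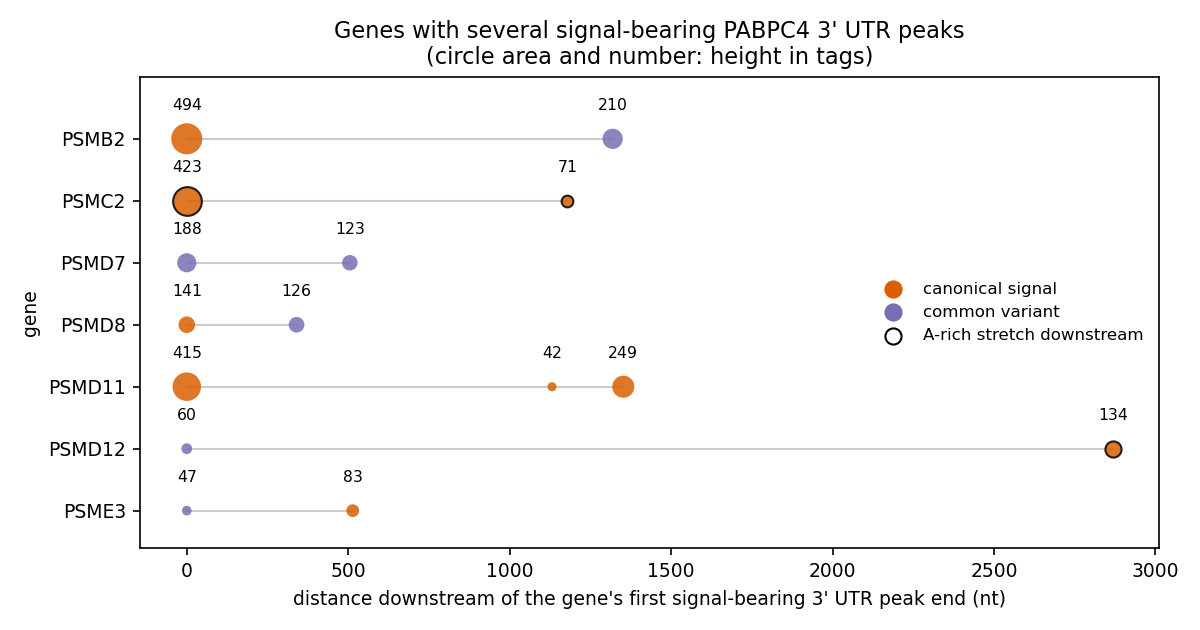
Signal-bearing PABPC4 3′ UTR peaks of the 7 genes with at least 2, placed by the distance of each peak end downstream of the gene's first one in nt, with circle area and number giving the height in tags, colour the form of the signal and a black outline an A-rich stretch downstream. The first end is the taller in PSMB2, PSMC2, PSMD7, PSMD8 and PSMD11 and the lower in PSMD12 and PSME3.

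Leaving out peaks beside an A-rich stretch, 14 genes had at least 2 3′ UTR peaks. Besides PSMB2, PSMB5, PSMD7, PSMD8, PSMD11, PSMD12 and PSME3, these were PSMA1 (443 and 57 tags), PSMA2 (515 and 53), PSMC6 (151 and 64), PSMD5 (97 and 65), PSMD9 (138 and 43), PSMD14 (197 and 70) and PSME3IP1 (38 and 8). The peaks within PSMA1 and within PSMB5 lay side by side, and whether they mark separate ends was not tested. In PSMA1, PSMA2, PSMC6, PSMD5 and PSMD14 the taller peak carried AAUAAA and the lower carried neither form of the signal. PSMD9 and PSME3IP1 had a signal at neither peak. The windows of PSMA2 and PSMC6 are shown as examples of such pairs, the signal-bearing one first.

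PSMA2 (chr7:42917412-42917441, minus strand): cuuauaaauccuAAUAAAcuguuaaaccca
PSMA2 (chr7:42917535-42917564, minus strand): gacugaaaaauccagaauuucagauaaucu
PSMC6 (chr14:52727964-52727993, plus strand): AAUAAAaucuguuugauucaguucuccuac
PSMC6 (chr14:52727858-52727887, plus strand): ugcgugagcauuuuguaaaauauugaaagu

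Over all 193 PABPC4 peaks of the proteasome genes, 74 lay in 3′ UTRs (38.3%, 31.8 to 45.4%), against 29.7% of the whole list, and 85 in introns (44.04%, 37.2 to 51.1%), against 60.2%. Coding sequence held 21 peaks (10.9%, 7.23 to 16.1%), against 5.11%. The 3′ UTR peaks held 66.5% of the summed heights, against 45.9% in the whole list, and the intron peaks 16.5%, against 41.3%. Without peaks beside an A-rich stretch, the 3′ UTR share of the peaks was 61% (51.2 to 69.98%), against 48.8% of the list without such peaks. The tallest PABPC4 peak lay outside the 3′ UTR in 10 of 44 genes (22.7%, 12.8 to 36.99%), against 42.1% of the 11865 protein-coding genes with a PABPC4 peak, and was tied with a 3′ UTR peak in PSMD5.

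**Figure D4:**
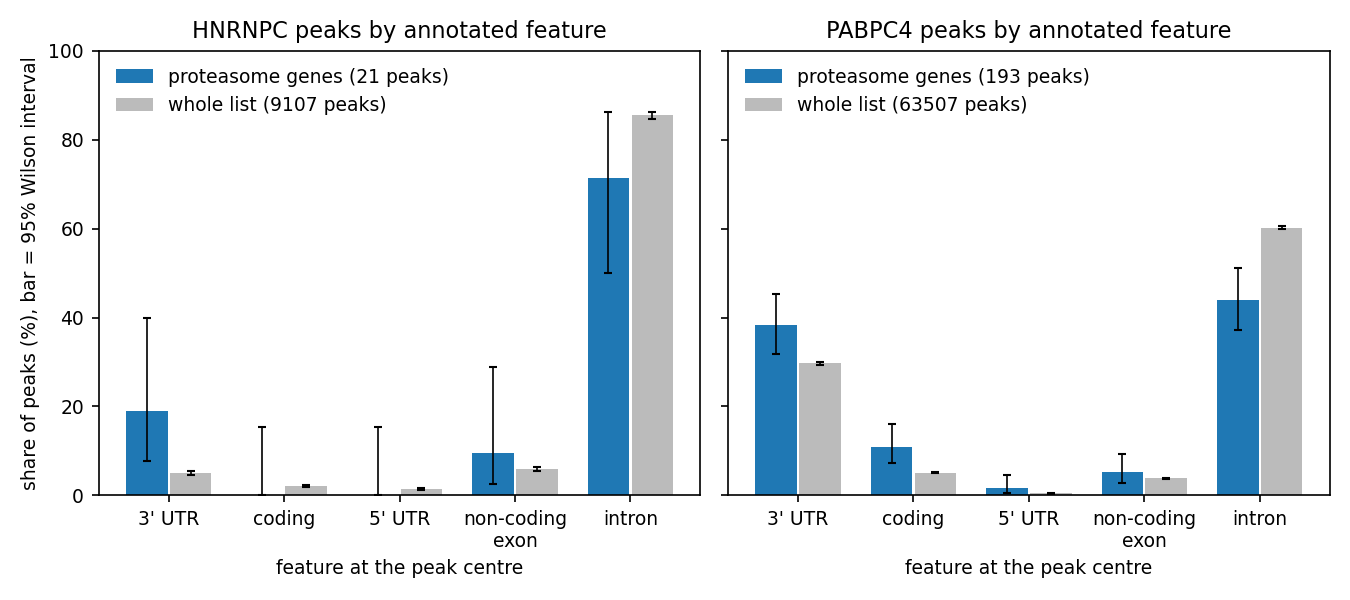
Share of HNRNPC peaks (left) and PABPC4 peaks (right) whose centre lay in each annotated feature, in percent, for the proteasome genes (blue) and the whole list (grey), with 95% Wilson intervals. For PABPC4 the share in introns is 44.04% in the proteasome genes and 60.2% in the whole list.

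The 21 peaks in coding sequence came from 13 genes, and 10 were followed by an A-rich stretch (47.6%, 28.3 to 67.6%), against 61.7% of all PABPC4 peaks in coding sequence. The following peaks were singled out after their values were seen. PSMA7 had a coding-sequence peak of 926 tags directly next to its 3′ UTR peak of 923 tags, beside an A-rich stretch. This coding-sequence peak ended 3 nt before an annotated transcript end. It placed PSMA7 among the 10 genes whose tallest peak lay outside the 3′ UTR. PSMD7 had coding-sequence peaks of 83, 226 and 265 tags, each beside an A-rich stretch, and its tallest 3′ UTR peak had 188. PSME1 had coding-sequence peaks of 239 and 358 tags with neither an A-rich stretch nor a poly(A) signal, both taller than its 3′ UTR peak of 208 tags. The PSME1 windows are shown for that reason.

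PSME1 (chr14:24137158-24137187, plus strand): gggagcuauuuccccaagaagauuucugag
PSME1 (chr14:24137373-24137402, plus strand): ucccagugccugauccagucaaggagaaag
PSME1 (chr14:24138937-24138966, plus strand): acAAUAAAuauaguuauaccacugcccauc

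The last window, in the 3′ UTR, held AAUAAA and the first pair held no signal. In PSMA1 the peak of 16 tags assigned to coding sequence lay in that of COPB1, and in PSMC2 a peak of 17 tags lay in RPS29P16, a pseudogene. Both stand under the proteasome gene in the list.

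Intron peaks of PABPC4 were found in 28 of the 49 genes. The share of all protein-coding genes with one was not counted, so this number has no comparison. An A-rich stretch lay downstream of 62 of the 85 (72.9%, 62.7 to 81.2%), against 71.2% of all PABPC4 intron peaks. A sequence similar to 7SL RNA, the ancestor of Alu repeats, whose transcripts often contain an A-rich tail, lay in or within 100 nt of 48 (56.5%, 45.9 to 66.5%), against 54.4%. In both measures the proteasome introns lay within counting error of the list. Of the 23 intron peaks without an A-rich stretch downstream, 4 had a poly(A) signal (17.4%, 6.98 to 37.1%), against 7.37% of such peaks in the list. These were in PSMA2 (58 tags), PSMA7 (58), PSMD1 (46) and PSMD6 (25), all low beside the 3′ UTR peak of the same gene except in PSMD1, whose 3′ UTR peak had 52 tags. PSME4 had 9 intron peaks, the most of any member, with up to 166 tags, PSMG2 had 8, and PSMB7 and PSMD9 had 7 each. Longer genes had more of them (Spearman rho = 0.718 between gene length and number of intron peaks over the 49 genes, as a description, since length sets how much sequence a peak can fall in).

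HNRNPC peaks on the proteasome genes were low. The 15 genes had 21 peaks with a median height of 9 tags (6 to 37), against 11 tags in the whole list. With peaks of at least 11 tags alone, 5 genes had one in place of 15, and with a p-value limit of 0.001, 10 did. Of the 21, 15 lay in introns (71.4%, 50.04 to 86.2%), against 85.5% of all HNRNPC peaks. Another 4 lay in 3′ UTRs (19.05%, 7.67 to 40%), against 4.96%, and 2 in non-coding exons. The 4 include the PSMG4 peaks of 37 and 8 tags, which lay in an intron of its canonical transcript. They count as 3′ UTR by other annotated transcripts. Coding sequence and 5′ UTRs held 0 of 21 (0 to 15.5%), against 3.47% of the whole list. Of the intron peaks, 7 lay in the first intron, 4 of them in PSMG4. This share was not counted over all HNRNPC intron peaks.

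Because HNRNPC is known for binding U runs, UUUUU was searched on the transcribed strand in each peak and the 50 nt upstream of it. It was found for 11 of 21 peaks (52.4%, 32.4 to 71.7%), against 39.7% of all HNRNPC peaks. In the peak alone it was found for 2 of 21 (9.52%, 2.65 to 28.9%), against 13.3%. The windows of the 4 longest runs are shown, with the run in capitals.

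PSMA5 (chr1:109421004-109421033, minus strand): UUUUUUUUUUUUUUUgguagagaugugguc
PSMB7 (chr9:124398158-124398187, minus strand): ggUUUUUUUUUUUUUgagauggagucucac
PSMD4 (chr1:151255725-151255754, plus strand): acgaugaauaaUUUUUUUUUgagacggucu
PSMG4 (chr6:3259531-3259560, plus strand): gcacacugauaaUUUUUUggggacucuugc

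Within these windows the longest runs were 15 U in PSMA5, where the window cut through a run of 21 U in the genome, 13 in PSMB7 and 9 in PSMD4. The first 2 lay upstream of their peaks, starting 50 and 48 nt before the 5′ end, and that of PSMD4 started 1 nt after it. All 3 peaks had 10 tags, lay in introns and were similar to the antisense strand of 7SL, as an inverted Alu would be. Such similarity was found for 8 of the 21 peaks (38.1%, 20.8 to 59.1%), against 32.8% of the whole list. These 8 were all in introns and came from 7 genes (PSMA5, PSMA6, PSMB7, PSMD4, PSMD12, PSMD13 and PSMG2), and 6 of the 8 had UUUUU, against 5 of the other 13.

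Counted by role, HNRNPC peaks were listed for 2 alpha ring genes, PSMA5 (10 tags) and PSMA6 (11), and 2 beta ring genes, PSMB2 (8) and PSMB7 (10). In the cap they were listed for 1 ATPase, PSMC1 (6), and for PSMD4 (10), PSMD7 (22), PSMD12 (8) and PSMD13 (9) among the non-ATPases. PSMD4 encodes a ubiquitin receptor and PSMD7 a partner of the deubiquitinase PSMD14. The PSMD7 peak was the second tallest among the members and lay 300 nt into the first intron. The chaperone PSMD9 had a peak of 14 tags in a non-coding exon, and PSME3IP1 had another of 14 tags. No inducible beta gene had one. The PSMG chaperones of the core were the group with most, 9 of the 21 peaks on 3 of 4 genes.

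In the 3′ UTR, HNRNPC peaks were listed for 3 genes (6.12%, 2.10 to 16.5%), against 1.98% of all protein-coding genes. PSME3 had 7 tags, PSMG1 had 6, and PSMG4 had peaks of 37 and 8. The PSMG4 peaks lay in an intron of its canonical transcript, and neither had UUUUU in it or just upstream. Each of these 3 genes also had a PABPC4 3′ UTR peak. The HNRNPC peak of PSME3 lay 242 nt upstream of the PABPC4 peak of 47 tags, the first of the signal-bearing ends given above, and held a run of 5 U. That of PSMG1 lay 549 nt downstream of the PABPC4 peak of 205 tags and 75 nt before an annotated end, and 5 U stood just upstream of it. The PSMG1 position was listed under 7 gene IDs and was counted once.

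PSME3 (chr17:42842874-42842903, plus strand): uuagugucuguuucugacuuaUUUUUccug
PSMG1 (chr21:39174910-39174939, minus strand): uguauguccucacUUUUUaguaauaucuga

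PSMG4 stood apart, with 6 of the 21 HNRNPC peaks. Of its peaks, 4 lay in the first intron, with 14, 8, 9 and 14 tags. The 37-tag peak, the tallest of any member, and the 8-tag peak lay in the 3′ UTR of some annotated transcripts and in the second intron of the canonical transcript, 684 and 3667 nt into an intron of 3831 nt. Neither of these peaks had UUUUU in it or in the 50 nt upstream. The 37-tag peak had GUGUCA in its last 20 nt, a sequence found there in 3 of the 21 peaks (14.3%, 4.98 to 34.6%), against 23.3% of the whole list, and the part of this sequence in the peak was not tested. PABPC4 tags on PSMG4 were the fewest of any member with a 3′ UTR peak, with peaks of 14 tags in coding sequence, 5 in the 3′ UTR and 9 in an intron of a longer transcript. PSMG4 was thus highest in 1 list and lowest in the other. The difference has no test, since each list is 1 pool.

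**Figure D5:**
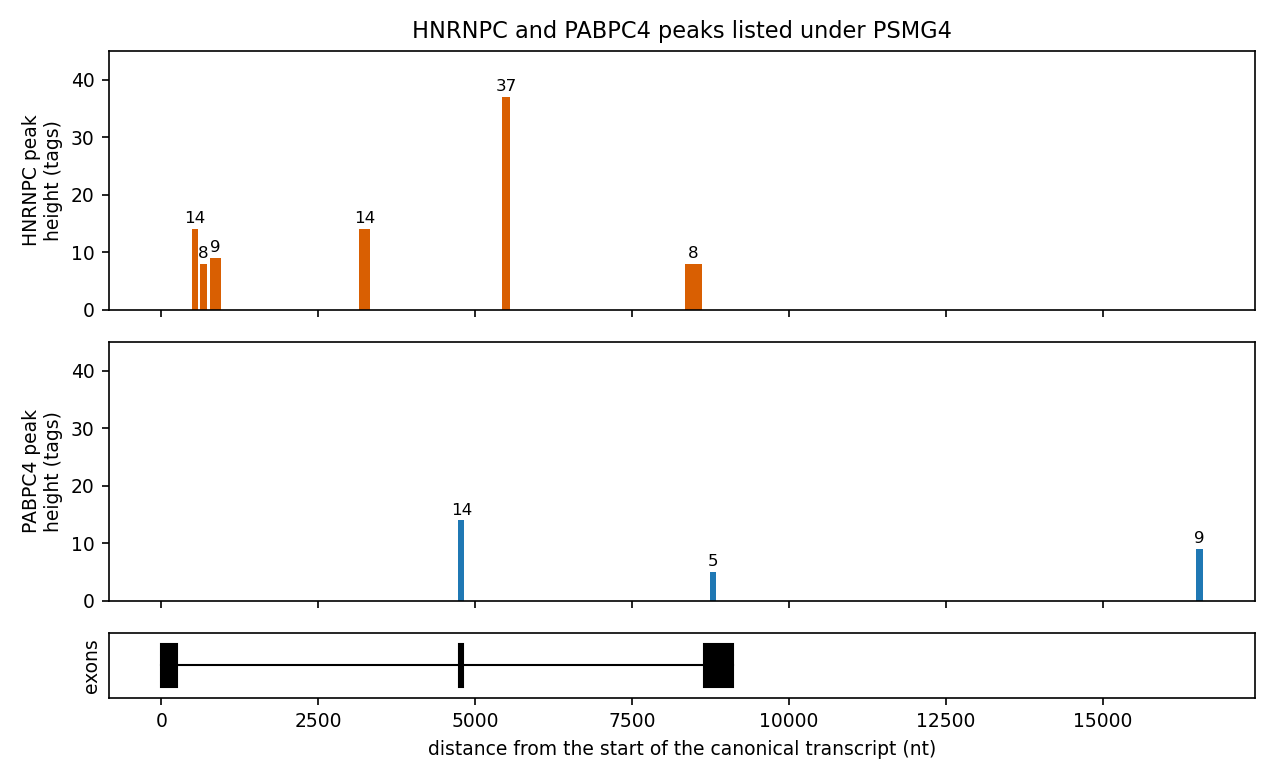
Peaks listed under PSMG4 by distance from the start of its canonical transcript in nt, with bar height and number giving pooled tags for HNRNPC (top) and PABPC4 (middle), and exons as boxes (bottom). The HNRNPC peaks lie between the exons, the tallest with 37 tags just after the second exon.

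No HNRNPC peak of the proteasome genes overlapped a PABPC4 peak (0 of 21, 0 to 15.5%). Such an overlap, by at least 1 nt on the same strand, was also rare in the whole list, at 0.944% of HNRNPC peaks. The gap to the nearest PABPC4 peak of the same gene had a median of 1696 nt and ran from 156 nt, at the 8-tag PSMG4 peak, to 10869 nt, in PSMG2. Genes with an HNRNPC peak were longer, with a median of 28690 nt for the 15 (8720 to 71971) and of 11749 nt for the 34 without one (1849 to 138762). The part of gene length in the HNRNPC count was not tested.

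For comparison, a list of 20 genes that act with the proteasome but carry other symbols was described in the same way. The list was chosen with earlier results of these data known. HNRNPC peaks were listed for 11 of the 20, against 19.02% of all protein-coding genes and 34.4% of those with a PABPC4 3′ UTR peak. PABPC4 peaks were listed for 20, against 59.2% of all genes. A PABPC4 3′ UTR peak was listed for 19, against 48.7%, with a median tallest height of 97 tags. The proteasome adaptor ECPAS had 1053 tags. POMP, which assembles the core, had 611 tags and ADRM1, a ubiquitin receptor of the cap, had 271. NFE2L1, the transcription factor that raises proteasome gene expression when the proteasome is inhibited, had 20. The list median lay below the 205 tags of the proteasome genes and above the 73 tags of all genes.

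Reads from a 3′ end that has a near-identical copy elsewhere in the genome, such as a processed pseudogene, can be placed at the wrong copy or discarded. For 11 of the 49 genes, at least 80 of the last 100 nt of the mRNA matched another place with at least 90% identity. PSME2 had 4 such places and PSMD10 had 2. Others were PSMA1, PSMA6, PSMB3, PSMC3, PSMC4, PSMD2, PSMD4, PSMD5 and PSMD14, with 1 each. Some genes had matches below this limit, such as PSMB5 (89.7% over 97 nt) and PSMC1 (85.1% over 94 nt). The best match of PSMB3, the constitutive core gene with no peak in either list, was 94% identical over 100 nt. Among the other 10, the tallest PABPC4 peak in the 3′ UTR ranged from 66 tags in PSMD10 to 663 in PSMD2, apart from PSME2. The part of such copies in any value was not tested.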

How the data were processed

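Cross-linked RNA of HNRNPC and PABPC4 was sequenced from MDA-MB-231 cells, with 2 samples per protein, which the study's methods call biological duplicates. For HNRNPC, per the methods and the submitters' processing notes, identical reads were collapsed with their molecular identifiers, which UMI-tools then extracted, linkers and poor bases were trimmed (cutadapt), alignment to hg38 used BWA 0.7.17, and the CTK package took out PCR duplicates and called the peaks by a valley-seeking method with multiple-testing correction. Steps specific to PABPC4, and the handling of reads that align to several places, are not given in the sources used here. The authors pooled both samples before calling peaks. The deposited signal of a peak is its height in pooled unique tags, not scaled to depth or to mRNA level. Heights summed to 147196 tags for HNRNPC and 4019739 for PABPC4, which are not library depths. There were 0 unused columns of per-sample values.

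Each position was counted once. Gene IDs were matched to NCBI symbols for 4090 of 4098 IDs (HNRNPC) and 13155 of 13189 (PABPC4). Peaks were assigned by their centre, on their strand, to GENCODE 44 features in the order 3′ UTR, coding sequence, 5′ UTR, non-coding exon and intron (bedtools 2.31.1), and 0 peaks ran past a chromosome end of the hg38 reference. The poly(A) signals AAUAAA and AUUAAA were searched on the transcribed strand in the 40 nt up to the 3′ end of a peak, which for narrower peaks begin upstream of it. Similarity to 7SL was found by BLAST 2.17.0 with 100 nt on each side and an E-value limit of 1e-05. Functions were tested on simulated data with known answers. Intervals are 95% Wilson intervals. No test was made, because each protein had 1 pooled list.

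The genes and lists were chosen with earlier results of these data known. The genes named were those with an HNRNPC peak, the 5 highest and the 5 lowest by tallest PABPC4 3′ UTR peak, those with at least 2 such peaks without an A-rich stretch, the catalytic subunits and their inducible counterparts, those without peaks and the 2 non-subunits. Others were named after their values were seen. A few values and sequences are not reported here. Alternatives covered p-value and height limits, every listed entry, the peak end in place of its centre, leaving out the non-subunits or A-rich PABPC4 peaks, and other windows and motifs.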

Additional observations from a re-analysis of the deposited data

How the results depend on the processing

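Of 64 alternative values, 56 moved by less than counting error or by no more than 1.5 times. These included counting every listed entry, the 3′ end of a peak in place of its centre and leaving out PSMC3IP and PSME3IP1. Among them, a p-value limit of 0.001 took the genes with an HNRNPC peak and those in both lists from 15 to 10. The rest moved further. With peaks at or above the median height of their list (11 tags for HNRNPC, 38 for PABPC4), the genes with an HNRNPC peak fell from 15 to 5, those in both lists from 15 to 4, and the 3′ UTR share of PABPC4 peaks was 51.6% (65 of 126). Without A-rich PABPC4 peaks that share was 61% (61 of 100). A poly(A) signal within 100 nt on either side was found for 81.1% of PABPC4 3′ UTR peaks. An A-rich stretch within 20 nt lay at 50.6% of intron peaks. UUUU in place of UUUUU was found for 76.2% of HNRNPC peaks, and UUUUU in the peak alone for 9.52%. In the peak alone the whole list had more, 13.3%, whereas in the main search it had less. Whole-list shares for the other searches and for the height limit were not counted. The settings differ in the search, the motif or the peaks counted, and why each value moved was not tested. The HNRNPC counts rest on low peaks, of which 7 of 21 reached the list median. No paired analysis was possible because the replicates of each protein were pooled before peak calling, and no replicate could be left out for the same reason. Depth limits low peaks most, and library depths were not analysed here.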
